A study of Mus musculus with 12 samples.

Results

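The ciliary axoneme is the microtubule core of a motile cilium, and 63 of the 54532 genes in the count table were taken to represent it. They are the protein-coding mouse genes whose symbol in GENCODE M21 starts with Dnah, Dnai, Cfap, Rsph, Tekt or Drc followed by a digit, together with Foxj1. The set holds 31 Cfap genes, 10 inner arm and 5 outer arm dynein heavy chains, 8 Rsph genes, 5 tektins, 3 Drc genes and Foxj1. M21 gives no gene a Dnai symbol, so the set has no dynein intermediate chain. The rule itself uses symbols and no measured value.

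Whole lung from mice was profiled by sequencing of poly(A) RNA, with 3 libraries in each of 4 groups. CKO mice carried Cc10-Cre and 2 floxed Rhoa alleles, and WT mice carried Cc10-Cre alone, so both genotypes express the Cre recombinase. Cc10 is the secretory protein of club (Clara) cells, and Rhoa, a small GTPase gene, would be removed in cells that express Cc10. Whether ciliated cells also lost it was not tested. Each genotype was given PBS or an agent labelled CRE, which the labels do not spell out and which is kept here as a label, giving the groups CKO_CRE, WT_CRE, CKO_PBS and WT_PBS. Ages are not stated, nor is it stated that each library came from a separate animal, so p-values measure the spread between these libraries.

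Motile cilia line the ciliated cells of the airway and move mucus. Rows of outer and inner dynein arms on the doublet microtubules pull neighbouring doublets past each other, the nexin-dynein regulatory complex links the doublets, and radial spokes connect them to a central pair. Tektins and many Cfap proteins lie on or inside the doublets, and Foxj1 is the transcription factor that switches on the motile cilium genes.

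Library totals ran from 16250674 to 21559210 counts. Levels are given as CPM, counts scaled to a common library size with TMM factors. The level of Rhoa was 465 to 544 CPM in CKO_CRE against 520 to 530 CPM in WT_CRE, and 397 to 481 CPM in CKO_PBS against 471 to 488 CPM in WT_PBS. It was not called between the genotypes under CRE (edgeR adjusted p = 0.728) or under PBS (edgeR adjusted p = 1). These are levels of whole lung, and loss of Rhoa in the cells that express Cc10 was not tested. Y-linked genes marked WT_PBS 1 to 3, CKO_PBS 1 and 3, WT_CRE 1 and CKO_CRE 1 as male and the other libraries as female, so sex was not balanced over the groups.

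Of the 63 genes, 61 passed the filter on low counts. Cfap97d1 (at most 0.354 CPM) and Rsph6a (at most 0.0588 CPM) did not. Mean levels were at least 10 CPM in 31 members, 1 to 10 CPM in 28 and below 1 CPM in 4. Per kilobase of exon, Foxj1 had the highest mean level at 30.6 CPM per kb, followed by Rsph1 at 14.0 CPM per kb and Cfap36 at 12.7 CPM per kb. Within the other classes the highest levels were 2.50 CPM per kb for Dnah5, 3.46 CPM per kb for Dnah6, 5.29 CPM per kb for Drc1 and 5.32 CPM per kb for Tekt1.

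Axoneme genes were lower with CRE in WT lungs. Summed over the 63 genes, the level was 640, 624 and 673 CPM in WT_CRE, against 1102, 1186 and 1146 CPM in WT_PBS. All WT_CRE libraries lay below all WT_PBS libraries. Of 61 tested members, 46 were lower and 3 higher (edgeR quasi-likelihood test, Benjamini-Hochberg adjusted p below 0.05), against 28.4% of all 17473 tested genes lower and 28.6% higher. The median log2 fold change was -0.85 over the members and 0.01 over all tested genes. In 49 members every WT_CRE library lay below every WT_PBS library, which was so for 34.1% of all tested genes. The reverse held for 3 members and for 34.4% of all tested genes. Of the 46 members, 37 stayed lower in each of 12 fits that left out 1 library. In bulk tissue, fewer ciliated cells and less RNA per ciliated cell cannot be told apart.

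**Figure D1:**
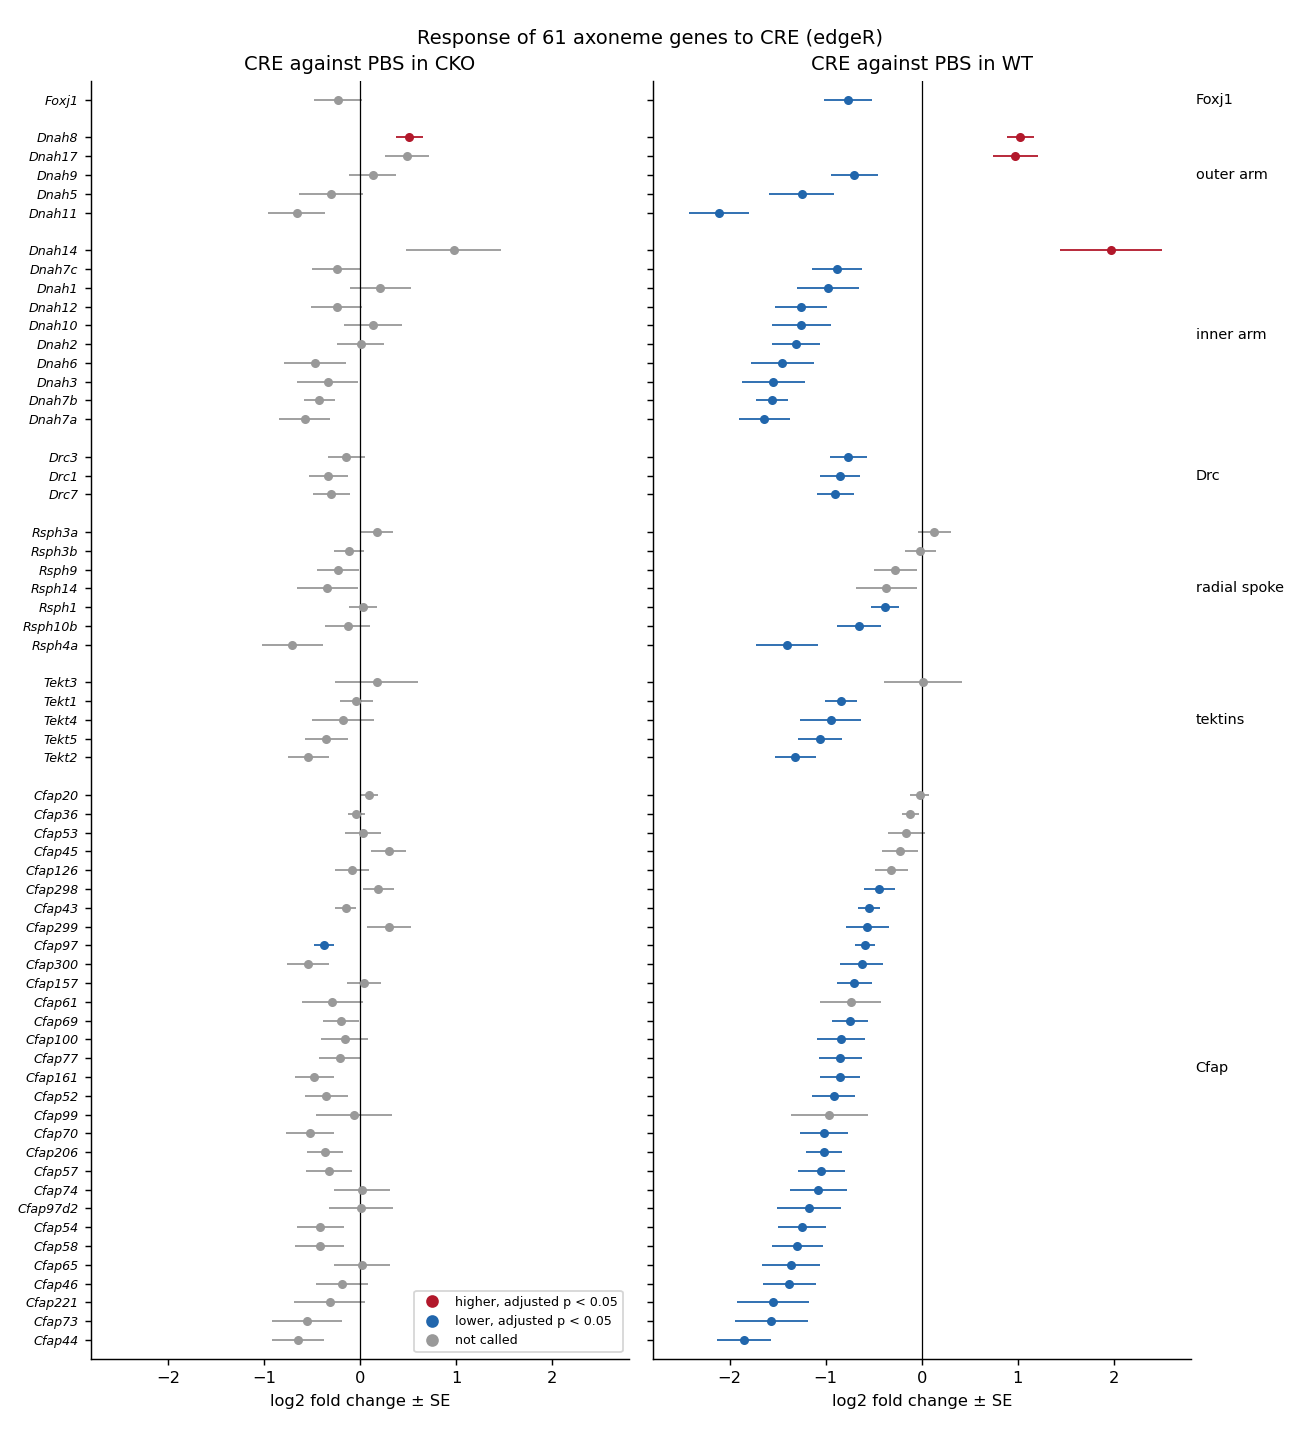
Log2 fold change (x axis, edgeR estimate ± SE) of the 61 tested axoneme genes, one per line and ordered within each class, for CRE against PBS in CKO (left) and in WT (right). Blue marks genes called lower, red genes called higher and grey genes not called: 46 are blue and 3 red in WT, 1 is blue and 1 red in CKO.

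Foxj1 stood at 89.9, 57.1 and 76.8 CPM in CKO_CRE, 52.7, 60.0 and 64.0 CPM in WT_CRE, 61.5, 131 and 69.7 CPM in CKO_PBS, and 92.5, 114 and 94.6 CPM in WT_PBS. The WT_CRE values all lay below those of WT_PBS, while the CKO groups overlapped and CKO_PBS 2 had the highest value of the 12. In WT the log2 fold change with CRE was -0.77 ± 0.25 (SE; edgeR adjusted p = 0.0195). That call was lost without WT_PBS 2 (edgeR adjusted p = 0.0682) or WT_CRE 1 (edgeR adjusted p = 0.0685). In CKO it was -0.23 ± 0.25 (edgeR adjusted p = 0.489).

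The 5 outer arm heavy chains, the motor subunits of the outer row, split into 3 lower and 2 higher with CRE in WT. For this and the following classes, the shares of all tested genes were 28.4% lower and 28.6% higher. Dnah5, a core outer arm motor of airway cilia, had 52.0, 15.2 and 34.6 CPM in CKO_CRE, 20.9, 23.1 and 27.6 CPM in WT_CRE, 31.2, 55.6 and 39.0 CPM in CKO_PBS, and 50.5, 59.8 and 59.9 CPM in WT_PBS. WT_CRE lay wholly below WT_PBS, and the CKO_CRE libraries ran from below all of WT_CRE to inside the WT_PBS range. Its log2 fold change with CRE was -1.25 ± 0.34 in WT (edgeR adjusted p = 0.00776) and -0.31 ± 0.33 in CKO (edgeR adjusted p = 0.491).

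Dnah11, the partner of Dnah5 near the base of human airway cilia, had the lowest log2 fold change of the 61 members in WT. It had 12.98, 4.09 and 9.47 CPM in CKO_CRE, 5.36, 4.10 and 6.31 CPM in WT_CRE, 14.2, 14.0 and 13.7 CPM in CKO_PBS, and 20.7, 22.3 and 25.2 CPM in WT_PBS. No CRE library reached the lowest PBS library of its genotype. The log2 fold change was -2.11 ± 0.31 in WT (edgeR adjusted p = 0.000197), a 4.32-fold lower level, and -0.66 ± 0.30 in CKO (edgeR adjusted p = 0.0991). Dnah9, the outer arm motor of the distal cilium in human airways, fell in WT by 0.70 on the log2 scale (edgeR adjusted p = 0.0291). Its call was lost without WT_CRE 2, WT_CRE 3, WT_PBS 2 or WT_PBS 3, where the edgeR adjusted p was 0.0573 to 0.105.

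Dnah8 and Dnah17 went the other way, and both are known as outer arm heavy chains of the sperm flagellum. Dnah8 had 12.9, 10.9 and 12.5 CPM in CKO_CRE, 19.1, 18.7 and 21.2 CPM in WT_CRE, 8.47, 9.28 and 7.59 CPM in CKO_PBS, and 11.3, 8.87 and 8.78 CPM in WT_PBS. The WT_CRE libraries were the highest, with no overlap with any other group. Dnah8 rose with CRE in WT by 1.03 ± 0.14 (log2; edgeR adjusted p = 0.000111) and in CKO by 0.52 ± 0.14 (log2; edgeR adjusted p = 0.0122). The CKO call was lost without CKO_PBS 3 (edgeR adjusted p = 0.0568).

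Dnah17 had 3.49, 3.21 and 2.65 CPM in CKO_CRE, 3.66, 4.10 and 3.69 CPM in WT_CRE, 1.81, 2.54 and 2.31 CPM in CKO_PBS, and 2.07, 1.46 and 2.30 CPM in WT_PBS. In both genotypes the CRE libraries lay above the PBS libraries. The log2 fold change was 0.97 ± 0.23 in WT (edgeR adjusted p = 0.00359) and 0.49 ± 0.23 in CKO (edgeR adjusted p = 0.11).

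Both genes overlap others on the opposite strand, and whether counting used strand is not given in the sources used here. The overlapping 1700097N02Rik had 1.95, 2.02 and 2.19 CPM in WT_CRE, against 0.555, 0.201 and 0.118 CPM in WT_PBS, in step with Dnah8. Pgs1, which overlaps Dnah17, averaged 133 CPM in WT_CRE and 103 CPM in WT_PBS. None of 10 male germ cell genes passed the filter, and their summed level was at most 1.97 CPM in any library.

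**Figure D2:**
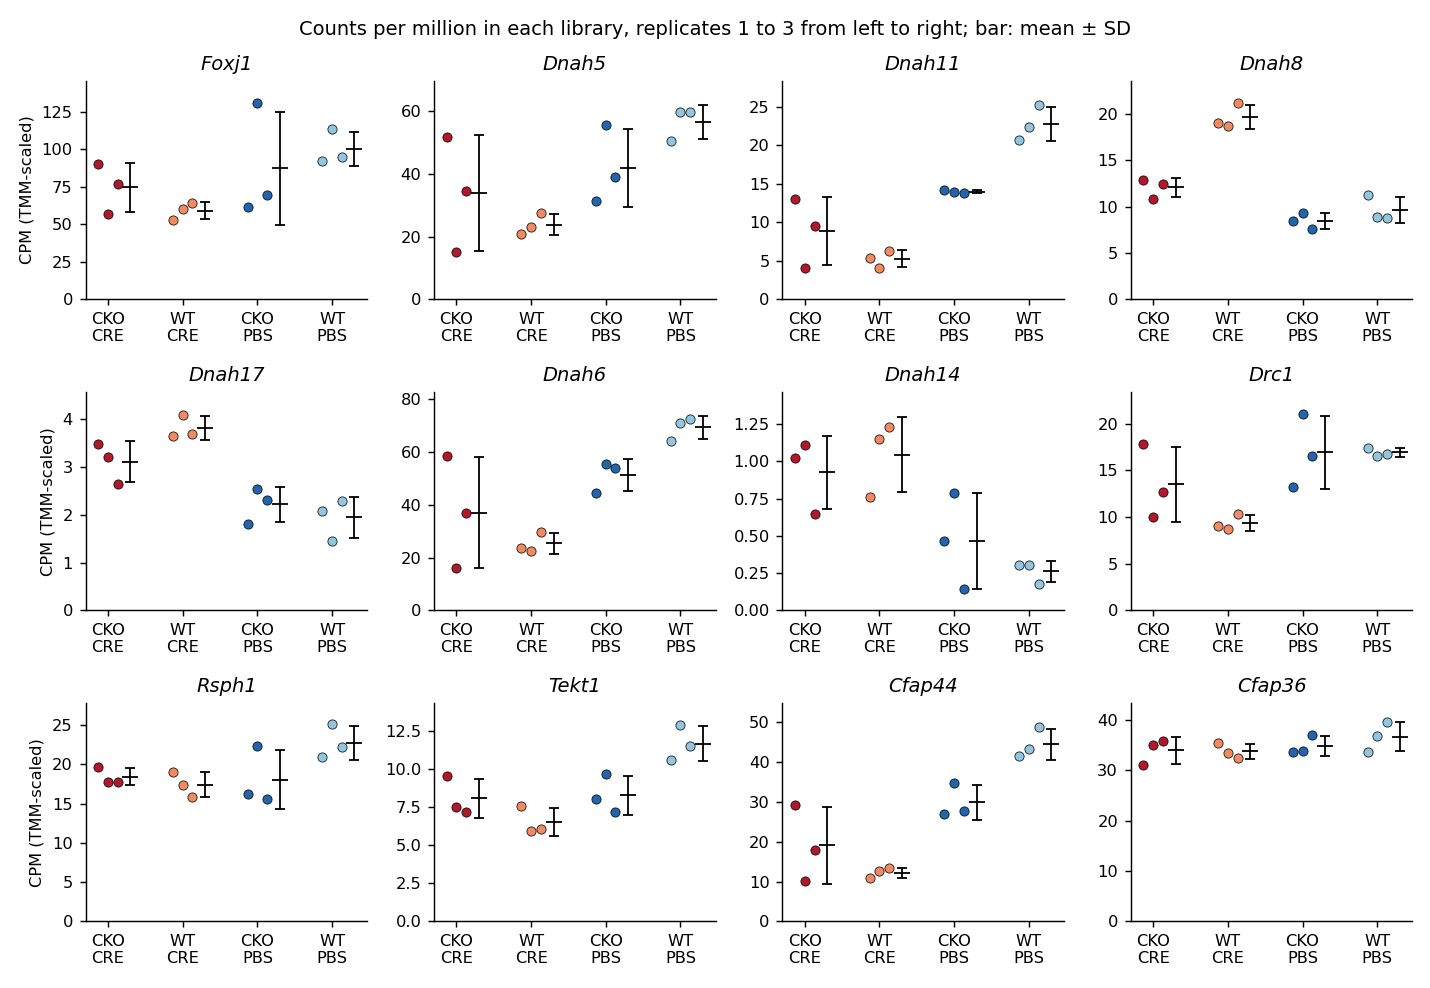
CPM (y axis, scaled by TMM) of 12 axoneme genes in each library, with groups on the x axis in the order CKO_CRE, WT_CRE, CKO_PBS, WT_PBS, points for replicates 1 to 3 and bars for the mean ± SD of 3 libraries. WT_CRE lies below WT_PBS for most of the genes shown and above it for Dnah8, Dnah17 and Dnah14, while CKO_CRE 1 and CKO_CRE 2 stand far apart for Dnah5, Dnah6 and Cfap44.

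Of the 10 inner arm heavy chains, which set the waveform of the ciliary beat, 9 fell and 1 rose with CRE in WT. Their median log2 fold change was -1.28. Dnah6 had 58.4, 16.0 and 36.9 CPM in CKO_CRE, 23.7, 22.5 and 29.9 CPM in WT_CRE, 44.4, 55.4 and 54.1 CPM in CKO_PBS, and 64.4, 71.2 and 72.5 CPM in WT_PBS. The WT groups were far apart, and CKO_CRE held both a value above all of CKO_PBS and one below all of WT_CRE. Dnah6 changed by -1.45 ± 0.33 in WT (log2; edgeR adjusted p = 0.0026) and by -0.47 ± 0.32 in CKO, where it was not called (log2; edgeR adjusted p = 0.263).

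Dnah7a had 4.21, 2.05 and 2.18 CPM in CKO_CRE, 2.40, 2.08 and 1.93 CPM in WT_CRE, 4.24, 4.76 and 3.56 CPM in CKO_PBS, and 7.23, 5.99 and 6.72 CPM in WT_PBS. The WT groups did not overlap, and its log2 fold change in WT was -1.64 ± 0.27 (edgeR adjusted p = 0.000369). Dnah7a, Dnah7b and Dnah7c are near-identical copies, so the division of reads among them is uncertain. All 3 fell with CRE in WT, with log2 fold changes of -1.64, -1.56 and -0.88 for Dnah7a, Dnah7b and Dnah7c.

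Dnah14 was the inner arm exception, at the edge of detection. Its counts were 12, 21 and 23 in WT_CRE and 6, 6 and 3 in WT_PBS. The corresponding levels were 0.757, 1.15 and 1.23 CPM in WT_CRE, against 0.303, 0.302 and 0.177 CPM in WT_PBS, without overlap. In CKO_CRE it had 1.02, 1.11 and 0.647 CPM and in CKO_PBS 0.465, 0.785 and 0.144 CPM. The log2 fold change was 1.97 ± 0.53 in WT (edgeR adjusted p = 0.00766) and 0.98 ± 0.49 in CKO (edgeR adjusted p = 0.135), and without CKO_PBS 2 it was called in CKO as well (1.60, edgeR adjusted p = 0.0435). Lbr, on the opposite strand, averaged 62.9 CPM in WT_CRE and 64.7 CPM in WT_PBS.

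All 3 Drc genes, whose products belong to the nexin link between doublets, fell with CRE in WT, by 0.76 to 0.90 on the log2 scale. Drc1, which is needed to assemble the link, had 17.8, 9.99 and 12.6 CPM in CKO_CRE, 9.08, 8.69 and 10.4 CPM in WT_CRE, 13.2, 21.02 and 16.6 CPM in CKO_PBS, and 17.4, 16.5 and 16.8 CPM in WT_PBS. WT_CRE lay below every PBS library of either genotype. Its log2 fold change in WT was -0.85 ± 0.21 (edgeR adjusted p = 0.00441).

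Among 7 tested radial spoke genes, 3 fell with CRE in WT and 4 were not called, against 28.4% of all tested genes lower. Their median log2 fold change, -0.37, lay nearer to 0 than that of any other class with more than 1 gene. Rsph4a, a protein of the spoke head, had a log2 fold change of -1.40 ± 0.32 (edgeR adjusted p = 0.00305). Rsph1, also of the spoke head, had 19.7, 17.8 and 17.8 CPM in CKO_CRE, 19.0, 17.4 and 15.8 CPM in WT_CRE, 16.2, 22.4 and 15.6 CPM in CKO_PBS, and 20.9, 25.2 and 22.2 CPM in WT_PBS. The WT groups were close but did not overlap. Rsph1 fell by 0.39 ± 0.14 on the log2 scale in WT (edgeR adjusted p = 0.0374), a call lost without WT_PBS 2, WT_PBS 3, WT_CRE 2 or WT_CRE 3, where the edgeR adjusted p was 0.065 to 0.133. Rsph9, the third spoke head protein, was not called (log2 fold change -0.28, edgeR adjusted p = 0.314), nor were the near-identical stalk genes Rsph3a and Rsph3b.

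Tektins form filaments along the doublet microtubules, and 4 of 5 fell with CRE in WT, with a class median of -0.95 on the log2 scale. Tekt1 had 9.55, 7.48 and 7.17 CPM in CKO_CRE, 7.57, 5.96 and 6.04 CPM in WT_CRE, 8.01, 9.65 and 7.16 CPM in CKO_PBS, and 10.6, 12.9 and 11.5 CPM in WT_PBS. Every WT_PBS library lay above the other 9 libraries. The log2 fold change in WT was -0.84 ± 0.17 (edgeR adjusted p = 0.00141). Tekt3, at 6 to 16 counts per library, was not called (log2 fold change 0.01, edgeR adjusted p = 0.986).

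Of 30 tested Cfap genes, 23 fell and none rose with CRE in WT, with a median log2 fold change of -0.85. Cfap44, part of the tether of an inner arm dynein in Chlamydomonas, had 29.2, 10.1 and 18.0 CPM in CKO_CRE, 10.9, 12.6 and 13.3 CPM in WT_CRE, 26.9, 34.9 and 27.8 CPM in CKO_PBS, and 41.4, 43.2 and 48.7 CPM in WT_PBS. Each WT_CRE library lay below each PBS library, and CKO_CRE 1 lay inside the CKO_PBS range. Its log2 fold change was -1.86 ± 0.28 in WT (edgeR adjusted p = 0.000233) and -0.65 ± 0.27 in CKO (edgeR adjusted p = 0.0786).

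Cfap73, of the complex that modifies inner arms in Chlamydomonas, had 2.10, 0.701 and 1.18 CPM in CKO_CRE, 1.01, 0.656 and 0.535 CPM in WT_CRE, 2.02, 2.13 and 1.68 CPM in CKO_PBS, and 2.12, 2.42 and 1.95 CPM in WT_PBS. WT_CRE lay wholly below WT_PBS, with a log2 fold change of -1.57 ± 0.38 (edgeR adjusted p = 0.00435). Ddx54 overlaps it on the opposite strand and averaged 68.1 CPM in WT_CRE and 55.5 CPM in WT_PBS. Cfap46, Cfap54, Cfap74 and Cfap221, which sit on the central pair, fell with log2 fold changes of -1.38, -1.25, -1.08 and -1.55 in WT.

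The 7 Cfap genes that were not called in WT include Cfap20 and Cfap53, which lie in or on the doublet wall, and Cfap36. Cfap36 had 30.9, 35 and 35.9 CPM in CKO_CRE, 35.5, 33.4 and 32.5 CPM in WT_CRE, 33.7, 33.8 and 37.0 CPM in CKO_PBS, and 33.7, 36.9 and 39.5 CPM in WT_PBS. All 4 groups overlapped, and the log2 fold change in WT was -0.12 ± 0.09 (edgeR adjusted p = 0.287). Cfap20 changed by -0.02 on the log2 scale (edgeR adjusted p = 0.849) and Cfap53 by -0.16 (edgeR adjusted p = 0.492).

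Promoters were compared because the members moved together. RefSeq (GRCm38.p6) gave a window of 250 bases before to 50 after the start for 58 promoters of 51 members. Cilium genes are known to carry X-box sequences, which RFX factors bind, and Foxj1 works together with these factors. The X-box core GTTGCC, on either strand, was found in 36.2% of the 58 member promoters and in 12.5% of all 32851 promoters. It was present in 19 of 39 promoters of members lower with CRE in WT (48.7%) and in 2 of 19 promoters of the other members (10.5%). The full X-box, a pair of such cores facing each other, occurred in 1 member promoter, that of Cfap298, and in 0.298% of all promoters. The forkhead sequence TGTTTAC, on either strand, was in 6.9% of member promoters and 3.65% of all, and TGTTTGT was in 3.45% and 6.61%. These are matches of letters, not measured sites, and base composition was not matched.

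At least 2 core matches were found in 7 members, all of which fell with CRE in WT, Cfap298 with a call lost without WT_CRE 2, WT_CRE 3 or WT_PBS 2 (edgeR adjusted p = 0.111 to 0.147). Most members fell in any case, 46 of 61 tested, and 39 of the 58 promoters belong to members that fell. Whether repeated matches go with the fall was not tested. The 5 windows that end before the RefSeq start site are shown because their members fell with CRE in WT and hold repeated matches. Each core match on either strand is in capitals, with 8 bases on both sides, written along the gene's own strand. By M21 coordinates the windows of Cfap298 and Tekt1 lie inside the gene, and that of Cfap161 spans the gene's start. The 5 windows lie at chr16:90934896-90935045 on the minus strand for Cfap298, chr7:83794865-83794913 on the minus strand for Cfap161, chr16:44394662-44394793 on the plus strand for Cfap44, chr11:72361884-72361925 on the minus strand for Tekt1 and chr4:126325697-126325792 on the minus strand for Tekt2.
Cfap298: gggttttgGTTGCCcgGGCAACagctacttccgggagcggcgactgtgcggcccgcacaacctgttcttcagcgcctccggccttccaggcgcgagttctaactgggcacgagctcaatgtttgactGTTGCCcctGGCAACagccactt
Cfap161: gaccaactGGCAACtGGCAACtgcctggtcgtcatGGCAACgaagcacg
Cfap44: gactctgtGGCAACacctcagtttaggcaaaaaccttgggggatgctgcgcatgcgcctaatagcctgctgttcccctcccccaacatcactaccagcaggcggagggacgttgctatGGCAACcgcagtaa
Tekt1: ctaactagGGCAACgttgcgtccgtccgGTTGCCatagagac
Tekt2: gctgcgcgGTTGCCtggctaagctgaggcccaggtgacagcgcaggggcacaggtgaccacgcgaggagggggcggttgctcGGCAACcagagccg

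Log2 fold changes with CRE in WT fell with exon length over the whole table. Over all tested genes the median was 0.39 below 2 kb, 0.14 from 2 to 4 kb and -0.04 from 4 to 6 kb. It was -0.22 from 6 to 10 kb, -0.44 from 10 to 15 kb and -0.58 from 15 kb. In the same order, 12.9%, 20.4%, 29.8%, 42.7%, 57.9% and 65.7% of the genes in these bins were called lower. Dynein heavy chains are among the longest genes. Member medians were -0.62 below 2 kb (10 of 13 members lower), -0.85 from 2 to 4 kb (11 of 17), -0.80 from 4 to 6 kb (6 of 8), -1.22 from 6 to 10 kb (6 of 6), -1.28 from 10 to 15 kb (9 of 10) and -0.70 from 15 kb (4 of 7). In the longest bin the member median was close to that of all genes, and the share of members called lower, 4 of 7, was below the 65.7% of all genes. Spearman's rho between exon length and log2 fold change was -0.25 over the 61 members, which share their libraries, and is given as a description. The part of the length trend in the members' fold changes was not tested.

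**Figure D3:**
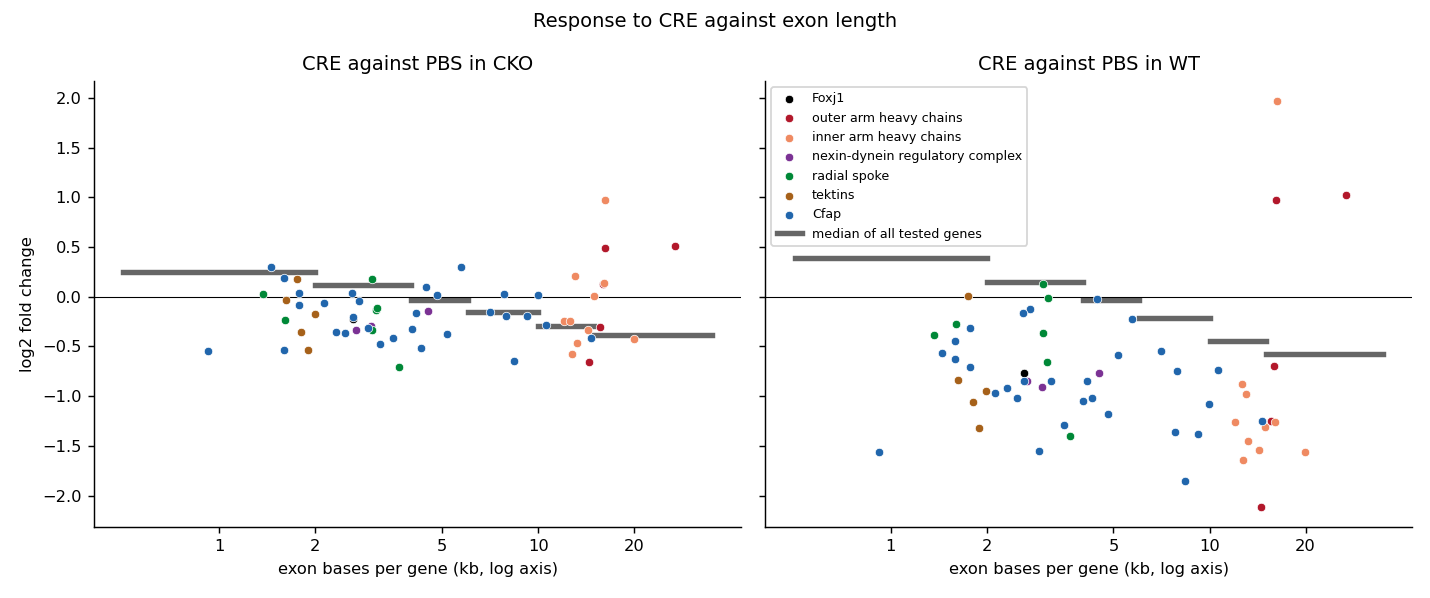
Log2 fold change (y axis) against exon length (x axis, kb on a log scale) for the 61 tested axoneme genes, coloured by class, for CRE against PBS in CKO (left) and in WT (right). Grey bars are medians of all tested genes in 6 length bins; in WT most members lie below them, and Dnah14, Dnah8 and Dnah17, all in the longest bin, lie far above.

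In CKO lungs the level of the members with CRE was spread over most of the range seen in the study. Their sum was 1045, 591 and 812 CPM in CKO_CRE and 834, 1074 and 862 CPM in CKO_PBS. CKO_CRE 1 lay within the CKO_PBS range, CKO_CRE 3 just below it and CKO_CRE 2 below all other libraries. Only Dnah8 was called higher and Cfap97 lower among 61 members, against 20.6% of all tested genes higher and 18.5% lower. The groups did not overlap in 2 members with higher and 5 with lower values in CKO_CRE, against 24.3% and 24.7% of all tested genes. The members' median log2 fold change was -0.19, and that of all tested genes was 0.00.

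Cfap97 had 23.1, 21.5 and 27.9 CPM in CKO_CRE, 20.9, 21.2 and 20.8 CPM in WT_CRE, 31.3, 28.7 and 34.2 CPM in CKO_PBS, and 31.3, 31.1 and 32.2 CPM in WT_PBS. CRE libraries lay below PBS libraries in both genotypes. Its log2 fold change was -0.38 ± 0.11 in CKO (edgeR adjusted p = 0.015) and -0.59 ± 0.11 in WT (edgeR adjusted p = 0.000664), and the CKO call was lost without CKO_PBS 3 (edgeR adjusted p = 0.0662). Snx25 overlaps it on the opposite strand and averaged 171 CPM in CKO_CRE and 224 CPM in CKO_PBS.

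The replicates of CKO_CRE differed across the whole set. CKO_CRE 1 was the highest of the 3 for 50 of 61 members and CKO_CRE 2 the lowest for 48 of 61. Over all tested genes these shares were 33.4% and 42.9%. The median deviation from the WT_PBS mean (log2) was -0.15, -0.92 and -0.51 in CKO_CRE 1, 2 and 3, and -0.90, -0.87 and -0.84 in WT_CRE. For club cell genes the same medians were -1.15, -2.13 and -1.14 in CKO_CRE and -2.02, -2.14 and -2.12 in WT_CRE, with CKO_CRE 2 again at the level of WT_CRE. For general epithelial genes they were 0.16, 0.70 and 0.14 in CKO_CRE and 0.44, 0.42 and 0.34 in WT_CRE. The part of this library in the results was not tested beyond leaving it out.

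**Figure D4:**
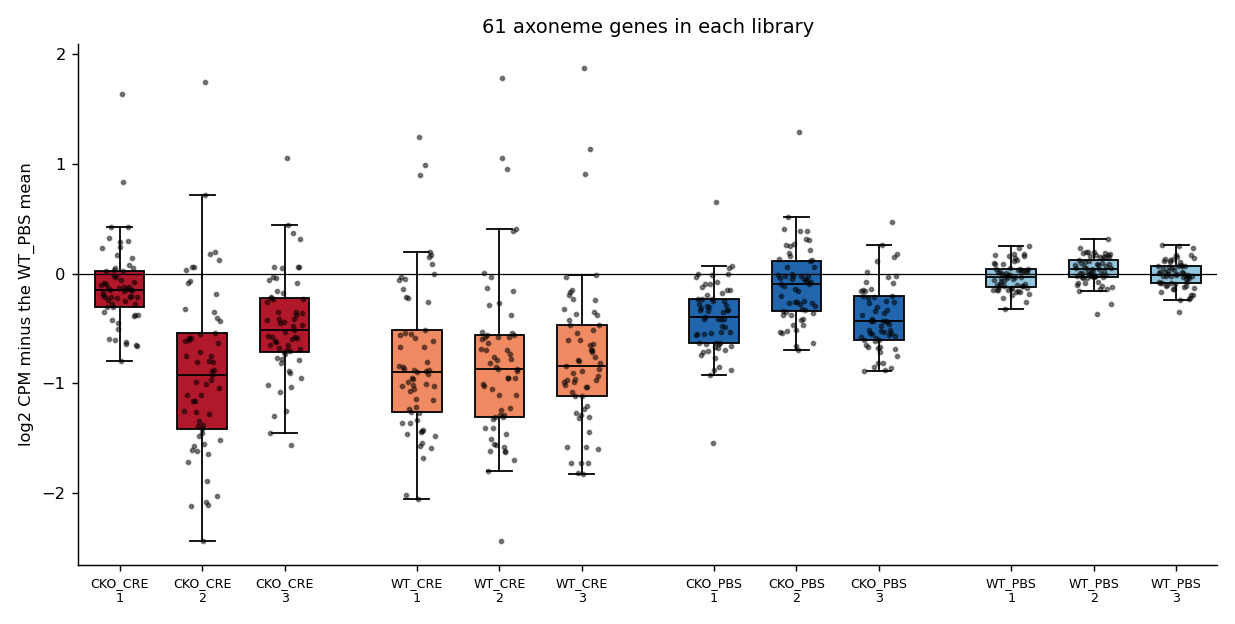
Log2 CPM minus the WT_PBS mean (y axis) of the 61 tested axoneme genes in each library (x axis: group and replicate), as points with boxes for the quartiles and whiskers to 1.5 times the interquartile range. The 3 WT_CRE boxes have medians from -0.90 to -0.84, whereas those of CKO_CRE lie at -0.15, -0.92 and -0.51.

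Under CRE, CKO lungs had more axoneme RNA than WT lungs in 2 of 3 libraries. The sum was 1045, 591 and 812 CPM in CKO_CRE and 640, 624 and 673 CPM in WT_CRE, so CKO_CRE 2 lay below all of WT_CRE. In CKO_CRE 1, 51 of 61 members were above the highest WT_CRE library, in CKO_CRE 3 it was 38 and in CKO_CRE 2 it was 10, with 24 below the lowest. For all tested genes the shares above were 37.2%, 36.3% and 27.1% in CKO_CRE 1, 3 and 2. The log2 fold change was positive in 54 of 61 members and in 8957 of 17473 genes, with medians of 0.34 and 0.01. In 7 members every CKO_CRE library lay above every WT_CRE library and in 2 every one lay below, against 7.37% and 7.69% of all tested genes.

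No member was called higher between the genotypes under CRE in edgeR, against 0.549% of all tested genes, and 14 had an unadjusted p below 0.05 in that direction, as had 11% of all tested genes. The Wald test of DESeq2 called 2 members and 3.08% of all tested genes higher, and limma-voom with library weights called 25 members and 23% of all tested genes higher. Without CKO_CRE 2, edgeR called 27 members higher, among them 7 of 10 inner arm heavy chains and 13 of 30 Cfap genes, with 15.8% of all tested genes called higher in that fit. Without CKO_CRE 1 it called none higher, with 0.84% of all tested genes. With all 12 libraries, log2 fold changes in this comparison rose with exon length over all tested genes. Their median was -0.097 below 2 kb of exon and 0.156 from 15 kb. The part of this trend in the values of the long heavy chains was not tested. Among the members with full values, Foxj1 differed by 0.34 ± 0.25 (edgeR adjusted p = 0.465), Dnah5 by 0.51 ± 0.34 (edgeR adjusted p = 0.425), Dnah6 by 0.55 ± 0.32 (edgeR adjusted p = 0.372), Dnah11 by 0.75 ± 0.31 (edgeR adjusted p = 0.235) and Cfap44 by 0.64 ± 0.28 (edgeR adjusted p = 0.255), all log2 and CKO over WT.

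Dnah8 was the 1 member called lower in CKO under CRE, against 0.366% of all tested genes. Its values of 12.9, 10.9 and 12.5 CPM in CKO_CRE all lay below 19.1, 18.7 and 21.2 CPM in WT_CRE, a log2 fold change of -0.70 ± 0.14 (edgeR adjusted p = 0.0348). The overlapping 1700097N02Rik had 1.26, 1.05 and 0.764 CPM in CKO_CRE and 1.95, 2.02 and 2.19 CPM in WT_CRE. The call was lost without WT_PBS 2 or 3, CKO_PBS 1 or 3, CKO_CRE 3 or any 1 of the WT_CRE libraries, with adjusted p of 0.052 to 0.138 in edgeR.

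The CRE responses of the genotypes were compared by their difference, CKO minus WT. It was positive in 57 of 61 members, with a median of 0.66 on the log2 scale, and in 8853 of 17473 genes, with a median of 0.005. This difference shares the WT_PBS and CKO_PBS libraries with the other comparisons, so its sign is not separate evidence. In edgeR no member was called, against 0.0343% of all tested genes higher and 0.0114% lower, and 28 members had an unadjusted p below 0.05, of which 27 were positive, as against 10.3% of all tested genes, 6.02% in the positive direction. The smallest adjusted p was 0.188, for Dnah7b (1.14 ± 0.24, edgeR). Dnah11 had a difference of 1.45 ± 0.43 (edgeR adjusted p = 0.365), Cfap44 1.21 ± 0.39 (edgeR adjusted p = 0.399), Dnah6 0.98 ± 0.45 (edgeR adjusted p = 0.483), Dnah5 0.94 ± 0.47 (edgeR adjusted p = 0.51), Foxj1 0.54 ± 0.35 (edgeR adjusted p = 0.583) and Dnah8 -0.51 ± 0.19 (edgeR adjusted p = 0.423).

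DESeq2 called 2 members and 0.532% of the genes with an adjusted p positive, and limma-voom called 35 members and 14.5% of all tested genes positive. Without CKO_CRE 2, edgeR called 26 members positive, 8 of them inner arm heavy chains, with 8.72% of all tested genes. Without CKO_CRE 1 it called none positive, with 0.117% of all tested genes. Without CKO_CRE 1, 19 members were then called lower with CRE in CKO, with 20.4% of all tested genes lower in that fit. The difference of the CRE responses, with all 12 libraries, also rose with exon length over all tested genes. Its median was -0.081 below 2 kb of exon and 0.201 from 15 kb, and the part of this in the members was not tested.

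**Figure D5:**
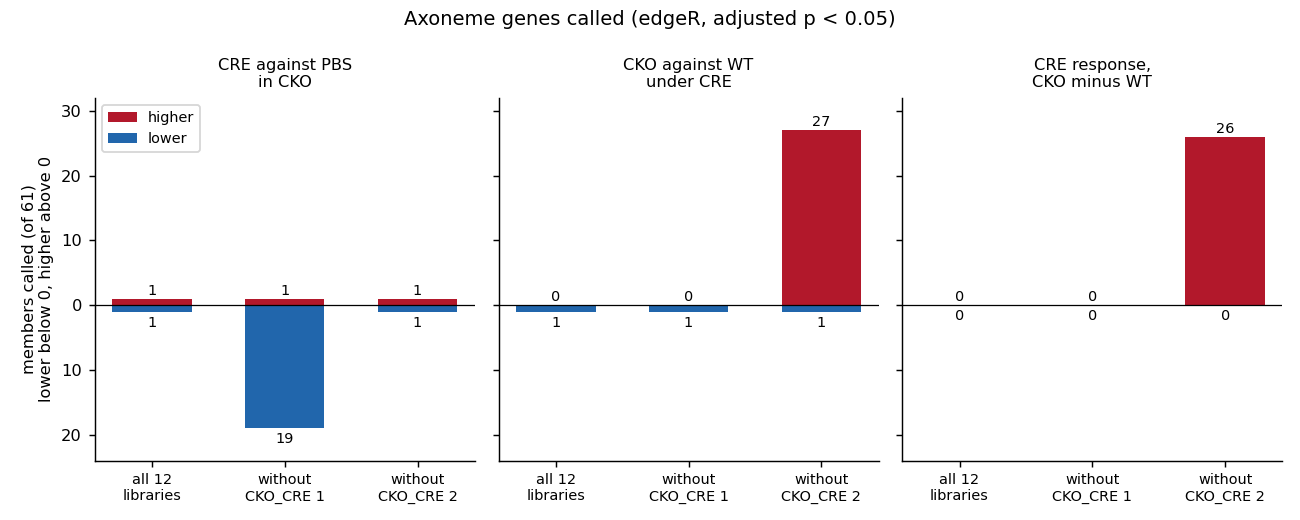
Number of axoneme genes called by edgeR (y axis, of 61; higher above 0 and lower below 0) for CRE against PBS in CKO, CKO against WT under CRE, and the difference of the CRE responses, with all 12 libraries and without CKO_CRE 1 or CKO_CRE 2. Leaving out CKO_CRE 2 brings 27 and 26 members past the threshold in the last pair of comparisons, and leaving out CKO_CRE 1 brings 19 lower members in the first.

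Under PBS, axoneme genes were on the whole lower in CKO than in WT lungs, without any call. The sum was 834, 1074 and 862 CPM in CKO_PBS and 1102, 1186 and 1146 CPM in WT_PBS, and the groups did not overlap. In 26 members every CKO_PBS library lay below every WT_PBS library, against 7.53% of all tested genes, and in none was it the reverse, against 7.65%. The log2 fold change was negative in 53 of 61 members, with a median of -0.33 over the members and 0.00 over all tested genes. In edgeR no member was called, against 0.0687% of all tested genes lower and 0.0401% higher, and 8 had an unadjusted p below 0.05, all lower, against 5.32% of all tested genes in either direction. DESeq2 called none lower, with 0.338% of all tested genes, and limma-voom called 3 lower, with 0.527%.

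Dnah11 differed by -0.70 ± 0.29 (log2; edgeR adjusted p = 0.875), Cfap44 by -0.57 ± 0.27 (log2; edgeR adjusted p = 0.95), Dnah6 by -0.43 ± 0.32, Dnah5 by -0.44 ± 0.33, Foxj1 by -0.20 ± 0.25 and Dnah8 by -0.19 ± 0.14, the last 4 at an adjusted p of 1 in edgeR. Among inner arm heavy chains 9 of 10 did not overlap between the groups, all lower in CKO_PBS. CKO_PBS 2, the female library of the group, was the highest of the 3 for 47 of 61 members, against 35% of all tested genes. In CKO_CRE the highest library, CKO_CRE 1, was the male one.

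Other lists moved the same way under PBS. Negative log2 fold changes, CKO over WT, were found in 22 of 25 other ciliated cell genes, with a median of -0.23, and in all 12 genes for light chains and the central apparatus, with a median of -0.29. They were also found in 13 of 16 club cell genes, with a median of -0.32, and 8 of the 16 were lower in CKO_PBS without overlap. No gene of these lists was called in edgeR. That the axoneme genes moved more or less than these lists was not tested.

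Lists of other motile cilium genes were read for CRE against PBS in WT, in which 28.4% of all tested genes were called lower. Of 12 tested genes for dynein light chains and the central apparatus, 11 fell and none rose, with a median log2 fold change of -0.94. Hydin, a large central pair protein, had a log2 fold change of -1.99 ± 0.34 (edgeR adjusted p = 0.000522) and Spag17, also of the central pair, -1.93 ± 0.28 (edgeR adjusted p = 0.000172). Of 14 genes for docking and assembly of dynein arms, 5 fell and none rose, a share near that of all tested genes, with a median of -0.55. Ccdc39 and Ccdc40, the ruler that spaces inner arms and nexin links, had -1.48 ± 0.28 (edgeR adjusted p = 0.00097) and -0.97 ± 0.21 (edgeR adjusted p = 0.00188).

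Some cilium genes serve primary and motile cilia alike. Intraflagellar transport genes make products that carry cargo along the cilium. With CRE in WT, 14 of 28 fell and 3 rose, against 28.4% of all tested genes lower and 28.6% higher. Their median log2 fold change was -0.29. Dync2h1, the retrograde motor, had -1.16 ± 0.22 (edgeR adjusted p = 0.00102), and Wdr19, a subunit of the retrograde complex, had -0.94 ± 0.20 (edgeR adjusted p = 0.00165). Ift20 and Cluap1, subunits of the anterograde complex, rose by 0.33 and 0.34. Of 9 BBSome genes, which sort membrane cargo, 6 fell and none rose, with a median of -0.53 and the lowest values for Bbs2 (-0.98) and Bbs1 (-0.76).

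Among 16 regulators of multiciliogenesis, 6 fell and 2 rose with CRE in WT, against 28.4% of all tested genes lower and 28.6% higher. Gmnc, which starts the multiciliated cell programme upstream of Foxj1, had 1.44, 0.818 and 1.82 CPM in CKO_CRE, 1.39, 0.547 and 0.214 CPM in WT_CRE, 3.00, 3.05 and 2.31 CPM in CKO_PBS, and 5.61, 3.88 and 4.36 CPM in WT_PBS. The CRE libraries lay below the PBS libraries in both genotypes. Its log2 fold change in WT was -2.71 ± 0.48 (edgeR adjusted p = 0.000597). Tfdp1, a partner of E2F factors in many dividing cells, rose by 0.86 (edgeR adjusted p = 1.32e-05), and E2f4, an E2F factor used in multiciliogenesis, by 0.38 (edgeR adjusted p = 0.00237). Foxn4 fell by 1.93 on the log2 scale (edgeR adjusted p = 0.0409).

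Markers of ciliated cells outside the axoneme and of other airway cells were read beside these results. Of all tested genes, 28.4% were called lower and 28.6% higher with CRE in WT, and 18.5% lower and 20.6% higher in CKO. Of 25 other ciliated cell genes, 16 fell and none rose with CRE in WT, with a median log2 fold change of -0.71 against -0.85 for the axoneme genes. Of 16 club cell genes, 13 fell in WT with a median of -2.13 and 13 fell in CKO with a median of -1.25. All 10 tested goblet cell genes rose in both genotypes, and the summed level of the list of 11 was 2102, 1940 and 2272 CPM in CKO_CRE, 3002, 2204 and 2735 CPM in WT_CRE, 47.9, 162 and 49.3 CPM in CKO_PBS, and 210, 139 and 130 CPM in WT_PBS. Of 8 general epithelial genes, 5 rose and none fell in WT, with a median of 0.40. Of 10 leukocyte genes, 8 rose and 1 fell in WT. The part of these cell types in the axoneme result was not tested.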

How the data were processed

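Read counts per gene were used as deposited by the authors, in 1 table of 54532 Ensembl identifiers by 12 libraries, with every column used. The tools fastp and STAR and the build mm10 appear, without versions, in what the submitters' processing notes list. How reads were assigned to genes (program, strand, multi-mapped reads, gene models) is not given in the sources used here. GENCODE M21 (GRCm38, the same build as mm10) supplied symbols and coordinates for 54409 of the identifiers. Members and gene lists were chosen with earlier results of these data known.

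The quasi-likelihood F test of edgeR 4.0.16, run in R 4.3.3, was applied to the counts of the 4 groups together (12 libraries, 1 mean for each group), after TMM scaling and the filterByExpr filter. P-values were adjusted by Benjamini-Hochberg over 17473 genes and called below 0.05, and libraries of a group varied by 17.4% (biological coefficient of variation). CPM are scaled by TMM. The code was tested on simulated counts with 200 changed genes. Full values are given for Foxj1, the member with the highest level per kb in each class, and up to 4 called members with the largest rise or fall in each comparison, at 1 CPM or more. Other genes named with values, such as Cfap298 and Cfap161, were chosen after their values were seen. Of the members, 29 have a near-identical copy (blastn 2.17.0, at least 98% over 200 bases) or overlap another gene, and are uncertain. Class and length summaries are descriptions without a test. Alternatives were other size factors, DESeq2 1.42.0, limma-voom 3.58.1, no filter, a 2-fold threshold, only the groups compared, the replicate number as a block, sex as a covariate, current symbols, and each library left out. Male libraries alone were added after seeing the data.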

Additional observations from a re-analysis of the deposited data

Results flagged for a closer look

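In 2 members every CRE library moved one way in WT and the opposite way in CKO, relative to the PBS mean of its genotype. The share of all tested genes that meet this rule was not computed, so the 2 are no result about the members as a set. Cfap298, whose product is needed to assemble dynein arms in human cilia, had 11.2, 10.4 and 9.53 CPM in CKO_CRE and a mean of 9.11 CPM in CKO_PBS, and it had 10.03, 7.38 and 7.22 CPM in WT_CRE and a mean of 11.1 CPM in WT_PBS. The difference of its CRE responses, CKO minus WT, was 0.63 on the log2 scale, with an adjusted p of 0.414 in edgeR. Cfap45, a protein inside the doublet microtubules, had 17.9, 15.0 and 14.9 CPM in CKO_CRE and a mean of 12.9 CPM in CKO_PBS, and it had 12.3, 11.7 and 12.9 CPM in WT_CRE and a mean of 14.4 CPM in WT_PBS. Its difference was 0.53, with an adjusted p of 0.507 in edgeR. The rule uses PBS means, and single libraries overlapped. For Cfap298, WT_CRE 1 lay above WT_PBS 1 (9.95 CPM). Its CKO_CRE 3 value lay below that of CKO_PBS 3 (9.90 CPM). For Cfap45, CKO_PBS 2 reached 17.2 CPM, above CKO_CRE 2 and 3, while the WT groups did not overlap.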

How the results depend on the processing

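With CRE in WT, 24 members were lower at a change of at least 2-fold and 38 with sex as a covariate (22.5% of all tested genes). The share of all tested genes at 2-fold was not computed, here or below, so the 2-fold counts are no result about the members. With a library left out, 38 to 48 members were lower. Of all tested genes, 23.5% were lower without WT_CRE 2 and 28.3% without CKO_CRE 1. With CRE in CKO, the members called higher numbered 0 with only the groups compared (12.9% of all tested genes) or at 2-fold. They numbered 2 with current symbols and 0 to 3 with a library left out. Of all tested genes, 14.5% were higher in CKO without CKO_PBS 3 and 22.9% without CKO_CRE 1. Those called lower in CKO numbered 10 with limma-voom (22.4% of all tested genes) and 2 without a filter (8.59%). They numbered 0 with only the groups compared (10.1%) or at 2-fold, and 0 to 19 with a library left out. The 19 were found without CKO_CRE 1, where 20.4% of all tested genes were lower. The median there was 0.28 in male libraries and -0.424 to -0.012 with a library left out. CKO over WT under CRE had 2 members higher with DESeq2, 25 with limma-voom, 1 without a filter (1.51% of all tested genes), 25 in male libraries (11.9%) and 0 to 27 with a library left out. Its 1 lower member became 0 with only the groups compared, in male libraries and at 2-fold, and 0 to 1 with a library left out. Its median was 0.758 in male libraries and 0.109 to 0.522 with a library left out. Under PBS, 3 members were lower with limma-voom (0.527% of all tested genes), 1 with only the groups compared (0.266%) and 11 in male libraries (0.785%). The difference of the CRE responses called 2 members higher with DESeq2, 35 with limma-voom, 35 in male libraries (8.21% of all tested genes) and 0 to 26 with a library left out, with medians of 1.173 in male libraries and 0.438 to 0.83 with a library left out. In male libraries each CRE group is 1 library, CKO_CRE 1 and WT_CRE 1, assumed to vary like the others. CKO_CRE 1 was the highest of its group for 50 of 61 members, so those values describe these libraries and support no call. The cause of these changes was not tested.

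Signs turned for CRE effects not called with all libraries in CKO: Foxj1 was 0.023 with limma-voom, 0.462 in male libraries and -0.428 to 0.185 with a library left out, Dnah5 was 0.572 in male libraries and -0.751 to 0.046 with a library left out, and in male libraries Dnah6 was 0.251 and Cfap44 0.1. Foxj1 under PBS ranged from -0.612 to 0.001 with a library left out. Same-numbered libraries deviated with correlations of -0.042 to 0.188, and differently numbered ones with -0.29 to 0.198. With 3 libraries in a group, these values cannot decide whether the numbers pair the libraries. With the replicate number as a block, 45 members were lower with CRE in WT, 2 in CKO and 0 between the genotypes under CRE. In that fit 28.5% of all tested genes were lower with CRE in WT and 19.6% in CKO. Counts of 3 to 23 per library limit Dnah14 and Tekt3.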

Other observations

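Current nomenclature gives 15 further genes a symbol of these families, under other names in M21. With CRE in WT, 9 fell and 1 rose, against 28.4% of all tested genes lower and 28.6% higher. The 15 include the dynein intermediate chains Dnai1 and Dnai2 of the outer arm, named Dnaic1 and Dnaic2 in M21. Dnaic2 averaged 8.81 ± 1.60 CPM in WT_CRE and 17.5 ± 0.12 CPM in WT_PBS (SD, n = 3 each), a log2 fold change of -0.99 ± 0.21 (SE; edgeR adjusted p = 0.00197). Dnaic1 averaged 4.65 ± 0.20 CPM in WT_CRE and 7.79 ± 1.05 CPM in WT_PBS, a log2 fold change of -0.74 ± 0.24 (SE; edgeR adjusted p = 0.0212). The lowest fold change of the 15 was that of Tcte1 (Drc5), at -1.36 ± 0.32 (SE; edgeR adjusted p = 0.00382). The gene that rose, 1810043G02Rik (Cfap410), averaged 16.0 ± 1.26 CPM in WT_CRE and 9.97 ± 1.68 CPM in WT_PBS, with a log2 fold change of 0.68 ± 0.17 (SE; edgeR adjusted p = 0.00423). With these genes the members numbered 78, of which 76 were tested, 55 fell and 4 rose in WT.

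The sum over the other ciliated cell genes is led by 1 gene. Sec14l3 made up 48.6% to 54.6% of it in WT_CRE and 66.5% to 71.7% in WT_PBS, so the summed level of that list follows Sec14l3, and medians over genes are used in the text.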
